A study of Rattus norvegicus with 21 samples.

Results

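Macrophage and myeloid genes were examined in the left ventricle of aged and young rats. The set was a list of 37 genes, fixed by name and chosen with earlier results of these data known. Of these, 35 had a row under the listed name in the deposited tables, and Adgre1 was found under its older symbol Emr1. For Lyz2 no row was matched, so 36 of the 26597 genes in each table were read. The animals were F-344 Brown/Norway rats, an inbred-strain cross used to study aging. The 6 groups were 9-month control, 24-month control and RLX-treated 24-month rats of each sex, with 4 females and 3 males per group (21 libraries in all). RLX is relaxin, a peptide hormone of pregnancy, given at 400 µg/kg/day for 14 days through a subcutaneous osmotic mini pump, and the control rats of both ages received sodium acetate by the same route. Rats of 9 months given RLX were not analysed here. RNA came from whole left ventricle, so each value is a sum over all cells of the tissue, and fewer macrophages cannot be told apart from less macrophage RNA per cell.

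Macrophages are the main immune cells of the healthy heart. A resident population that renews itself in the tissue lies between the muscle cells and takes up dead cells, debris and hemoglobin, and blood monocytes add to it with age and injury. Both depend on the growth factor Csf1 acting on its receptor Csf1r and on the transcription factor PU.1, the product of Spi1. Cd163, Mrc1, Lyve1 and Folr2 mark the resident cells in mouse and human hearts, while genes such as Cd68, Aif1, Ptprc and Itgb2 are made by macrophages or leukocytes in general.

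The windows of 250 bases before the annotated start are shown for a resident marker, a general macrophage gene and a leukocyte gene. The last had the smallest p of the set under RLX in females. All of these genes were higher in aged than in young control females. The windows come from RefSeq (build GRCr8), with Mrc1 at chr17:82157475-82157724 on the plus strand, Cd68 at chr10:54882442-54882691 on the minus strand and Laptm5 at chr5:148371630-148371879 on the plus strand. Capitals mark the core of the purine box that PU.1 binds, searched as GAGGAA on either strand, so that TTCCTC is the same box on the other strand.
Mrc1: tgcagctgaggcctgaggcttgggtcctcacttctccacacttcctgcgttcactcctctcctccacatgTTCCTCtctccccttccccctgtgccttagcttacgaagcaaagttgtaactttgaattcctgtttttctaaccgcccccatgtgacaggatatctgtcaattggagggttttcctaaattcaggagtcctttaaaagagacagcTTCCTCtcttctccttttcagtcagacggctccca
Cd68: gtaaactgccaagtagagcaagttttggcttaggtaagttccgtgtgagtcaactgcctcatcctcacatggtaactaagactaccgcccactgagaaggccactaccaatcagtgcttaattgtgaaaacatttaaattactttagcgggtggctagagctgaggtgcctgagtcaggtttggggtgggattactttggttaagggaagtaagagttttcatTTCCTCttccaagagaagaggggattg
Laptm5: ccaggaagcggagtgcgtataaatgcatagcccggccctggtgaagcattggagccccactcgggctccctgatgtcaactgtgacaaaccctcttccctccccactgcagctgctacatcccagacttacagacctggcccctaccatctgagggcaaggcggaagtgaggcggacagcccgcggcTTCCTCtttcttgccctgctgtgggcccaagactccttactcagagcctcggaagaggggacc

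Of the 37 genes, 26 had such a window (27 windows, since Cd80 had a pair), and 15 of the 26 held at least 1 purine box, beside 23.3% of the 33469 windows of all genes. Mrc1 and Csf1r held 2 each, and the boxes of Cd68, Laptm5, Cd53, Trem2 and Cybb lay 14 to 63 bases before the start. Among the 4 resident genes Mrc1 was the only holder of a box, and 8 of the 11 general myeloid genes with a window (Lyz2 among them) held it. A match of these letters is a description of the window and not evidence of binding. Whether the box bears on the levels of these genes was not tested.

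Each library held 11997512 to 19027947 counts assigned to genes. Levels are given as CPM (counts scaled to a common library size with TMM factors over the 21 libraries), listed in the order of the rats' label numbers: 9-month females 1, 3, 4 and 5, 24-month control females 2, 4, 5 and 6, RLX-treated females 1, 2, 4 and 6, 9-month males 2, 3 and 4, 24-month control males 8, 11 and 12, and RLX-treated males 2, 3 and 7. Some libraries stood apart in genes of other tissues: control female 5 held 6648 CPM over 5 atrial muscle genes (273 to 1228 CPM in the other 24-month controls), and red cell genes summed to 11413 CPM in RLX-treated female 4 and 1434 CPM in control female 6, against 5.77 to 26.8 CPM in the other female libraries. Among the males, 9-month male 4 held 876 CPM of the atrial genes (189 and 213 CPM in the other 9-month males) and RLX-treated male 2 held 332 CPM of the red cell genes (8.35 and 14.96 CPM in the other RLX-treated males). RLX-treated female 1 averaged 5.42 log2 CPM over the atrial genes, against 2.86 to 3.01 in the other RLX-treated females. Its 5 fat cell genes summed to 14.3 CPM, against 0.0731 to 0.267 CPM there, and those of 9-month female 5 to 56.3 CPM. That 9-month female also averaged 4.41 log2 CPM over the atrial genes, against 2.00 to 2.45 in the other 9-month females. The counts for female aging, RLX in females and the contrasts between the sexes are given with and without the 3 female libraries named first. Those are control females 5 and 6 and RLX-treated female 4. In female aging, which holds no RLX-treated rat, control females 5 and 6 alone were left out. The 24-month control females that remained in each of these fits were 2 and 4. RLX-treated female 1 and 9-month female 5 were kept in that alternative. The 7 neutrophil genes summed to 32.7 CPM in RLX-treated female 4, 5.70 CPM in control female 6 and at most 1.46 CPM in the other libraries, and Mpo and Elane stayed under 0.5 CPM in every library.

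Per length, in the deposited RPKM averaged over the 21 libraries, the adaptor gene Tyrobp was the highest of the set (74.1), followed by the lysosomal gene Laptm5 (37.4), the lectin Clec10a (32.3) and the oxidase subunit Ncf1 (29.8). Folr2 (27.9), Lyve1 (19.2), Mrc1 (16.3) and Cd163 (11.6) lay in the upper and middle part of the set, beside Csf1r (21.1) and Cd68 (12.6). The lowest were Siglec1 (0.957), Slc11a1 (0.668) and Cd80 (0.206). No read was counted for the row named Marco, a scavenger receptor gene; that row lies on chromosome 16 in the deposited tables, whereas RefSeq places Marco on chromosome 13 of GRCr8, so the 0 is a statement about that row. Cd80 and Marco fell under the filter on low counts, which left 34 of the 36 rows to be tested.

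Macrophage genes were higher in the left ventricle of aged than of young females. Of the 34 genes tested, 19 were higher in 24-month than in 9-month control females at a false discovery rate (FDR, the Benjamini-Hochberg adjusted p of edgeR's quasi-likelihood test over all 12696 genes) of at most 0.05 and none was lower, beside 3.47% of all genes called higher. Those 19 included the scavenger receptors Cd163 and Mrc1, the folate receptor Folr2, the lysosomal marker Cd68 and the lipid-sensing receptor Trem2. In 16 of them the change also passed the study's thresholds for a DEG (a change of more than 1.5-fold, and an RPKM that averaged 1 or more in either group), beside 2.29% of all genes. All but Ncf1 of the 34 had a positive log2 fold change (49.9% of all genes did), with a median of 0.64 against -0.0005 over all genes. In 20 of the 34 every 24-month control female lay above every 9-month female, beside 7.03% of all genes.

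The count of 19 was 13 without control females 5 and 6, which were high in atrial or red cell genes. That alternative was chosen after the data were seen. Without 9-month female 4 the count was 12. Over all genes, 166 of 12952 and 92 of 12875 were called higher in those fits. Other cell types moved alongside. Of 9 T cell genes, Cd3d, Cd3g, Cd2, Cd6 and Cd8b passed the test and were higher in the 24-month control females, and the list summed to 38.96 to 55.03 CPM there against 18.8 to 23.9 CPM in the 9-month females. The 5 fibroblast genes summed to 2199.8 to 3055 CPM against 1419 to 1840.4 CPM, with Dcn, a matrix proteoglycan, passing the test (log2 fold change 0.71). The 5 muscle cell genes summed to 17984 to 22861 CPM against 23389.8 to 29171 CPM, with Myh6, the alpha myosin heavy chain, lower (-0.81). Their part in the result was not tested.

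**Figure D1:**
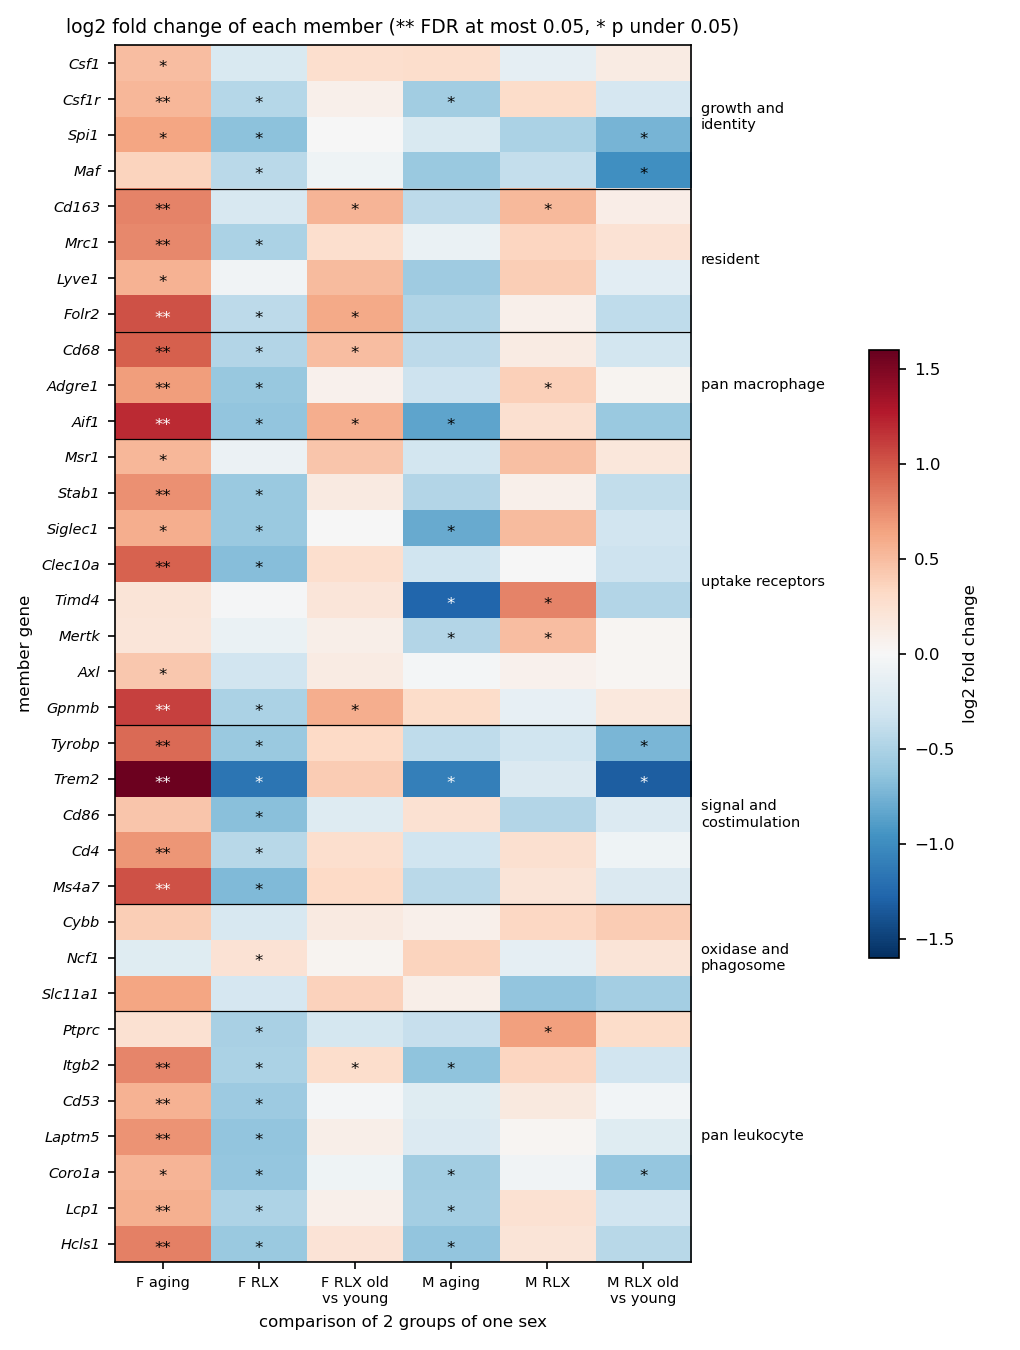
Log2 fold change of the 34 tested genes (rows, grouped by role) in 6 comparisons of 2 groups of the same sex (columns); red is higher and blue lower in the first group, with a double asterisk at an FDR of at most 0.05 and a single asterisk at an unadjusted p under 0.05. The 19 double asterisks all lie in the female aging column, and the female RLX column is blue in every row except Ncf1.

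RLX-treated 24-month females had lower levels of the same set than 24-month control females, but no single gene passed the test over all genes. The leukocyte genes Laptm5 and Cd53 came nearest (FDR = 0.066 and 0.0698), at log2 fold changes of -0.63 and -0.59. In edgeR's quasi-likelihood test 0 of the 34 members and 0% of the 12591 genes were called. At an unadjusted p under 0.05, 24 members were lower, beside 7.81% of all genes, and only Ncf1 was higher. DESeq2 called 13 members lower, with 195 of all genes lower and 89 higher. The exact test of edgeR called 10 lower, with 139 of all genes lower and 27 higher. Called with voom and sample quality weights were 0 members and 0 of all genes. Leaving out the filter on low counts gave 4 calls, Adgre1, Cd53, Hcls1 and Laptm5, with 29 of 17963 genes lower and 7 higher.

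The log2 fold change under RLX was negative in 33 of the 34 (51.1% of all genes), with a median of -0.50 against -0.01 over all genes. In 11 of the 34 every RLX-treated female lay below every control, beside 3.7% of all genes. Without the 3 libraries high in atrial or red cell genes, the median was -0.39 and 16 members stood lower with an unadjusted p under 0.05. The T cell genes summed to 15.8 to 45.6 CPM under RLX and the fibroblast genes to 1553 to 1935 CPM, below all 4 controls for the fibroblast list, and the muscle cell genes summed to 22749 to 27273 CPM. None of these lists had a member that passed, and their part in the result was not tested. The aging and RLX comparisons share the 24-month control females, so their values below are set side by side and are not independent of each other.

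Among the 4 resident markers, Cd163, the receptor for hemoglobin bound to haptoglobin, had 36.4, 33.1, 35.9 and 42.2 CPM in the 9-month females, 59.4, 54.8, 64.2 and 74.3 CPM in the 24-month control females and 74.8, 46.6, 51.1 and 41.3 CPM in the RLX-treated females. In males Cd163 had 52.7, 79.9 and 67.2 CPM at 9 months, 43.9, 56.2 and 52.4 CPM in the 24-month controls and 71.5, 89.8 and 52.9 CPM under RLX. All 24-month control females exceeded all 9-month females (FDR = 0.00613, log2 fold change 0.79, SE 0.11), whereas RLX-treated female 1 stood above all of the controls and the RLX difference was -0.26 (SE 0.17, FDR = 0.523). Mrc1, the mannose receptor, had 66.2, 60.5, 55.2 and 67.4 CPM in the 9-month females, 94.4, 101, 113 and 112 CPM in the 24-month control females and 99.97, 66.3, 71.5 and 62.8 CPM in the RLX-treated females. In males Mrc1 had 85.4, 145 and 104 CPM at 9 months, 108, 97.5 and 109 CPM in the 24-month controls and 136, 148 and 109 CPM under RLX. It rose with age in females (log2 fold change 0.77, SE 0.10, FDR = 0.00435) and stood at -0.50 (SE 0.14, FDR = 0.158) under RLX, with 3 of the 4 RLX-treated females below all controls and female 1 among them.

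Lyve1, a hyaluronan receptor that lymphatic endothelium also makes, had 52.5, 35.7, 28.2 and 44.1 CPM in the 9-month females, 57.8, 62.5, 54.03 and 59.8 CPM in the 24-month control females and 78.3, 48.6, 65.3 and 34.7 CPM in the RLX-treated females. Its male levels were 84.3, 165 and 69.2 CPM at 9 months, 72.8, 83.04 and 62.4 CPM in the 24-month controls and 120.3, 92.8 and 68.6 CPM under RLX. Control females of 24 months lay above all of the 9-month females, but the FDR was 0.0694 (log2 fold change 0.56, SE 0.16), and under RLX the difference was -0.06 (SE 0.21, FDR = 0.935), with RLX-treated females on both sides of the controls. The sign of that value turned when RLX-treated female 2 or 6 was left out (0.01 and 0.11). The 5 lymphatic endothelial genes summed to 35.6 to 215 CPM in 9-month, 90.8 to 156 CPM in 24-month control and 73.2 to 119 CPM in RLX-treated females, and none of them passed in either comparison. Folr2, the folate receptor beta, had 19.3, 18.8, 15.9 and 25.6 CPM in the 9-month females, 43.9, 33.7, 38.5 and 43.5 CPM in the 24-month control females and 38.6, 29.3, 31.2 and 22.1 CPM in the RLX-treated females. In males Folr2 had 32.4, 57.3 and 47.4 CPM at 9 months, 28.4, 34.6 and 36.8 CPM in the 24-month controls and 40.5, 35.5 and 27.2 CPM under RLX. It had the largest female aging value of the resident genes (log2 fold change 1.02, SE 0.14, FDR = 0.00613) with no overlap between the ages, and under RLX it stood at -0.41 (SE 0.15, FDR = 0.258) with overlapping groups.

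**Figure D2:**
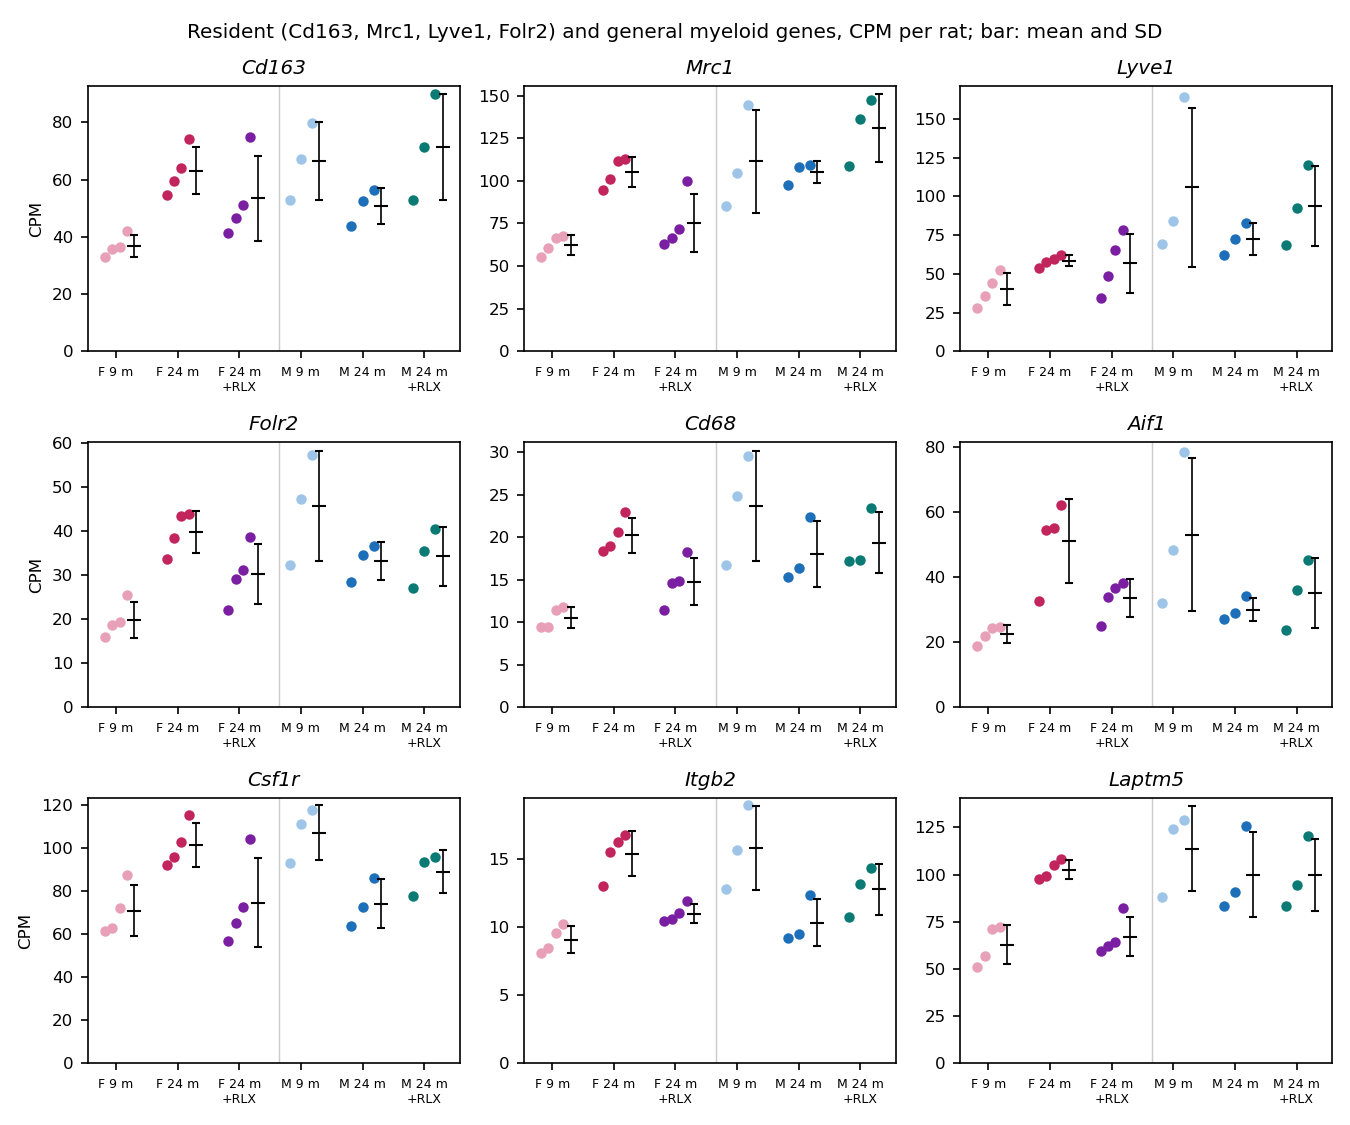
CPM in each rat (points, drawn from low to high within a group) for the 4 resident genes and 5 general myeloid genes in the 6 groups, with the mean and SD beside them; F and M are female and male and m is months. In every panel the 24-month control females lie above the 9-month females, and RLX-treated females lie below all controls for Cd68, Itgb2 and Laptm5.

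All 3 pan-macrophage genes read passed in female aging. Cd68, a lysosomal glycoprotein, had 9.42, 11.5, 9.47 and 11.8 CPM in the 9-month females, 20.6, 18.3, 18.9 and 22.97 CPM in the 24-month control females and 18.3, 14.6, 14.8 and 11.5 CPM in the RLX-treated females. Male levels of Cd68 were 16.8, 29.5 and 24.8 CPM at 9 months, 16.4, 15.3 and 22.4 CPM in the 24-month controls and 23.5, 17.3 and 17.2 CPM under RLX. It rose with female age (log2 fold change 0.95, SE 0.12, FDR = 0.00435), and all RLX-treated females lay below all controls (log2 fold change -0.47, SE 0.14, FDR = 0.188), the closest pair, RLX-treated female 1 and control female 4, differing by less than the rounding. RLX-treated female 6 alone lay within the 9-month range. Aif1, an actin-binding protein of activated macrophages, had 21.9, 24.4, 18.9 and 24.6 CPM in the 9-month females, 54.3, 54.98, 32.6 and 62.2 CPM in the 24-month control females and 36.7, 38.3, 33.9 and 25.1 CPM in the RLX-treated females. Male Aif1 levels were 32.1, 78.4 and 48.4 CPM at 9 months, 28.9, 34.03 and 27.04 CPM in the 24-month controls and 45.1, 35.9 and 23.8 CPM under RLX. Its female aging change was 1.20 (SE 0.18, FDR = 0.00975) with control female 5 the lowest of its group, and under RLX it stood at -0.63 (SE 0.20, FDR = 0.23), with 3 of the RLX-treated females above that rat. Adgre1, which encodes the F4/80 antigen, had 19.1, 24.8, 23.5 and 28.8 CPM in the 9-month females, 37.8, 33.9, 40.4 and 38.8 CPM in the 24-month control females and 31.3, 23.3, 24.7 and 21.2 CPM in the RLX-treated females. In males Adgre1 had 25.7, 40.1 and 36.8 CPM at 9 months, 29.8, 24.7 and 28.4 CPM in the 24-month controls and 31.2, 40.9 and 33.1 CPM under RLX. It was higher with age in females (log2 fold change 0.66, SE 0.12, FDR = 0.0134) and every RLX-treated female lay below every control (log2 fold change -0.60, SE 0.12, FDR = 0.0825).

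In the growth factor and identity group Csf1r alone passed. Csf1r had 61.3, 71.996, 62.97 and 87.4 CPM in the 9-month females, 95.8, 92.3, 103 and 116 CPM in the 24-month control females and 104, 65.3, 72.7 and 56.8 CPM in the RLX-treated females. In males the receptor had 92.9, 111 and 118 CPM at 9 months, 72.4, 86.2 and 63.6 CPM in the 24-month controls and 93.4, 95.98 and 77.5 CPM under RLX. It rose with age in females (log2 fold change 0.53, SE 0.12, FDR = 0.0302), and under RLX it stood at -0.46 (SE 0.16, FDR = 0.254), with RLX-treated female 1 inside the range of the controls. Csf1, its ligand, which stromal cells and vessels also make, had 23.5, 39.7, 34.4 and 39.3 CPM in the 9-month females, 62.1, 37.6, 50.3 and 41.6 CPM in the 24-month control females and 37.3, 32.2, 41.4 and 53.1 CPM in the RLX-treated females. Male Csf1 levels were 51.03, 41.5 and 76.1 CPM at 9 months, 72.4, 33.5 and 103 CPM in the 24-month controls and 37.6, 46.98 and 100.1 CPM under RLX. The ligand overlapped between ages and treatments in females at 0.50 (SE 0.19, FDR = 0.16) for aging and -0.24 (SE 0.18, FDR = 0.589) for RLX, and the 24-month control males ranged from 33.5 to 103 CPM.

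Spi1, the gene of PU.1, had 6.37, 11.2, 7.60 and 13.005 CPM in the 9-month females, 17.2, 13.1, 15.8 and 12.6 CPM in the 24-month control females and 10.3, 10.4, 9.81 and 7.31 CPM in the RLX-treated females. In males Spi1 had 8.04, 8.26 and 12.1 CPM at 9 months, 6.24, 6.68 and 11.7 CPM in the 24-month controls and 4.17, 4.64 and 7.93 CPM under RLX. The female ages overlapped in Spi1 (log2 fold change 0.64, SE 0.21, FDR = 0.0995), while all RLX-treated females lay below all controls (log2 fold change -0.65, SE 0.14, FDR = 0.0961). Maf, a transcription factor of tissue macrophages, had 3.92, 2.98, 1.57 and 4.03 CPM in the 9-month females, 3.69, 4.98, 3.18 and 4.07 CPM in the 24-month control females and 3.31, 2.74, 3.34 and 2.48 CPM in the RLX-treated females. Its levels in males were 2.62, 1.98 and 4.44 CPM at 9 months, 1.84, 2.56 and 1.64 CPM in the 24-month controls and 2.13, 0.843 and 1.62 CPM under RLX. These low values overlapped in both female comparisons at 0.35 (SE 0.27, FDR = 0.49) with age and -0.43 (SE 0.20, FDR = 0.353) under RLX.

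Of the 8 uptake receptors tested, 3 passed in female aging: Stab1, Clec10a and Gpnmb. Stab1, the scavenger receptor stabilin, had 37.6, 43.7, 39.2 and 42.4 CPM in the 9-month females, 56.4, 55.5, 70.1 and 85.6 CPM in the 24-month control females and 57.97, 40.1, 45.4 and 36.7 CPM in the RLX-treated females. Male Stab1 levels were 36.7, 32.4 and 55.3 CPM at 9 months, 34.1, 30.9 and 26.4 CPM in the 24-month controls and 35.6, 25.98 and 32.9 CPM under RLX. Aged control females were all above the young (log2 fold change 0.73, SE 0.13, FDR = 0.0142), and under RLX the value was -0.59 (SE 0.17, FDR = 0.194) with female 1 within the control range. Clec10a, a galactose-binding lectin, had 41.1, 33.5, 28.8 and 38.4 CPM in the 9-month females, 70.7, 73.6, 53.2 and 73.2 CPM in the 24-month control females and 55.2, 40.8, 42.6 and 31.6 CPM in the RLX-treated females. The male levels of Clec10a were 64.5, 92.02 and 64.5 CPM at 9 months, 59.2, 70.5 and 50.04 CPM in the 24-month controls and 84.3, 48.2 and 42.8 CPM under RLX. It rose with age in females (log2 fold change 0.95, SE 0.14, FDR = 0.00658) and was -0.69 (SE 0.16, FDR = 0.126) under RLX, with an overlap between control female 5 and RLX-treated female 1. Gpnmb, a glycoprotein of lipid-laden macrophages, had 30.005, 44.1, 32.9 and 39.01 CPM in the 9-month females, 62.5, 56.5, 89.8 and 98.4 CPM in the 24-month control females and 72.03, 55.9, 48.97 and 41.9 CPM in the RLX-treated females. In males Gpnmb had 39.8, 75.9 and 81.4 CPM at 9 months, 59.2, 43.7 and 143 CPM in the 24-month controls and 60.5, 76.5 and 83.2 CPM under RLX. Its female aging change was 1.09 (SE 0.19, FDR = 0.0169) and its RLX value -0.51 (SE 0.21, FDR = 0.335), with RLX-treated female 1 inside the control range.

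Siglec1, a sialic acid-binding lectin, had 5.88, 5.15, 6.27 and 7.96 CPM in the 9-month females, 7.51, 6.85, 9.96 and 13.2 CPM in the 24-month control females and 8.25, 5.48, 6.27 and 5.04 CPM in the RLX-treated females. Male Siglec1 levels were 8.29, 7.83 and 10.4 CPM at 9 months, 6.44, 5.12 and 3.75 CPM in the 24-month controls and 7.74, 8.18 and 5.65 CPM under RLX. The female ages overlapped (log2 fold change 0.59, SE 0.21, FDR = 0.133), as did RLX-treated and control females (log2 fold change -0.60, SE 0.22, FDR = 0.268). Mertk, a receptor tyrosine kinase for the uptake of dying cells, had 9.86, 10.4, 11.04 and 10.03 CPM in the 9-month females, 13.9, 10.8, 10.7 and 11.4 CPM in the 24-month control females and 13.999, 9.00, 11.3 and 9.57 CPM in the RLX-treated females. In males Mertk had 11.3, 13.9 and 12.4 CPM at 9 months, 9.27, 10.1 and 8.28 CPM in the 24-month controls and 14.2, 13.2 and 10.9 CPM under RLX. The groups of Mertk overlapped in females, with 0.20 (SE 0.12, FDR = 0.364) for aging and -0.11 (SE 0.15, FDR = 0.801) for RLX. The other uptake receptors, Msr1 (scavenger receptor A, 4.46 to 13.9 CPM over all libraries), Axl (a kinase related to Mertk, 38.3 to 71.7 CPM) and Timd4 (a phosphatidylserine receptor, 1.25 to 6.36 CPM), did not pass in any comparison.

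In the signalling group Tyrobp, Trem2, Ms4a7 and Cd4 passed in female aging and Cd86 did not. Tyrobp, the adaptor through which Trem2 signals, had 25.2, 33.2, 25.03 and 36.9 CPM in the 9-month females, 58.5, 64.8, 43.5 and 56.6 CPM in the 24-month control females and 37.9, 44.1, 44.2 and 24.3 CPM in the RLX-treated females. Its male levels came to 43.6, 88.3 and 56.5 CPM at 9 months, 37.1, 47.5 and 60.2 CPM in the 24-month controls and 44.04, 32.6 and 36.8 CPM under RLX. It rose with age in females (log2 fold change 0.91, SE 0.16, FDR = 0.0111), and RLX-treated females overlapped the controls at control female 5 (log2 fold change -0.59, SE 0.19, FDR = 0.23). Trem2, a lipid-sensing receptor, had 1.96, 3.78, 1.63 and 3.13 CPM in the 9-month females, 6.30, 5.39, 6.67 and 12.4 CPM in the 24-month control females and 5.00, 3.60, 2.80 and 2.41 CPM in the RLX-treated females. Male Trem2 levels were 2.28, 5.68 and 6.07 CPM at 9 months, 1.64, 1.67 and 3.56 CPM in the 24-month controls and 2.21, 1.27 and 2.10 CPM under RLX. This was the largest change with female age in the set (log2 fold change 1.57, SE 0.32, FDR = 0.0265), with control female 6 above the other controls, and all RLX-treated females were below all controls (log2 fold change -1.17, SE 0.30, FDR = 0.155).

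Ms4a7, a membrane-spanning protein of macrophages, had 2.78, 3.35, 3.68 and 3.03 CPM in the 9-month females, 6.84, 7.54, 5.33 and 6.07 CPM in the 24-month control females and 4.82, 4.93, 3.34 and 2.92 CPM in the RLX-treated females. In males Ms4a7 had 4.40, 7.48 and 5.19 CPM at 9 months, 4.86, 3.90 and 4.04 CPM in the 24-month controls and 4.17, 5.90 and 4.39 CPM under RLX. The aging change in females was 1.02 (SE 0.17, FDR = 0.00975), and RLX-treated females lay below all controls (log2 fold change -0.70, SE 0.20, FDR = 0.169). Cd4, which rat macrophages make as well as helper T cells, had 33.1, 37.4, 36.5 and 44.6 CPM in the 9-month females, 59.1, 51.04, 68.7 and 66.1 CPM in the 24-month control females and 63.96, 43.04, 37.96 and 36.9 CPM in the RLX-treated females. Male Cd4 levels were 46.03, 60.9 and 64.9 CPM at 9 months, 47.2, 43.3 and 49.4 CPM in the 24-month controls and 54.9, 61.9 and 47.2 CPM under RLX. Ages separated fully in females (log2 fold change 0.71, SE 0.12, FDR = 0.00975), and under RLX the value was -0.45 (SE 0.17, FDR = 0.28) with female 1 inside the control range. Cd86, a costimulatory ligand for T cells, had 1.36, 2.67, 1.93 and 1.96 CPM in the 9-month females, 1.88, 3.11, 3.28 and 2.38 CPM in the 24-month control females and 1.98, 2.19, 1.20 and 1.46 CPM in the RLX-treated females. Male Cd86 levels were 1.86, 5.59 and 2.44 CPM at 9 months, 3.22, 2.56 and 6.35 CPM in the 24-month controls and 2.89, 3.04 and 2.52 CPM under RLX. These levels overlapped in both female comparisons at 0.45 (SE 0.26, FDR = 0.34) with age and -0.66 (SE 0.26, FDR = 0.284) under RLX. Cd80, the related ligand, did not exceed 0.425 CPM.

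None of the 3 oxidase and phagosome genes passed in female aging. Ncf1, the organizing subunit of the phagocyte oxidase, had 89.4, 85.5, 102 and 95.97 CPM in the 9-month females, 95.5, 70.4, 86.1 and 70.4 CPM in the 24-month control females and 93.5, 99.6, 90.7 and 99.1 CPM in the RLX-treated females. In males Ncf1 had 112, 88.9 and 86.9 CPM at 9 months, 123, 131 and 121 CPM in the 24-month controls and 102, 106 and 124 CPM under RLX. It was the only member with a negative value in female aging (log2 fold change -0.20, SE 0.11, FDR = 0.328) and the only positive value under RLX in females (log2 fold change 0.23, SE 0.11, FDR = 0.353), with overlapping groups in both. Cybb, the catalytic subunit, spanned 30.97 to 79.6 CPM over the 21 libraries and Slc11a1, a metal ion transporter of the phagosome, 0.935 to 3.07 CPM. Cybb stood at 0.40 (SE 0.18) on the log2 scale with female age and -0.26 (SE 0.19) under RLX in females, and Slc11a1 at 0.63 (SE 0.37) and -0.27 (SE 0.34). Neither passed in any comparison.

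Of the 7 pan-leukocyte genes, 5 passed in female aging, all but Ptprc and Coro1a. Ptprc, the leukocyte common antigen, had 35.1, 44.5, 38.7 and 34.98 CPM in the 9-month females, 48.3, 43.98, 38.2 and 48.7 CPM in the 24-month control females and 25.2, 29.97, 32.6 and 38.7 CPM in the RLX-treated females. Male Ptprc levels were 32.2, 51.3 and 40.7 CPM at 9 months, 27.9, 26.5 and 43.9 CPM in the 24-month controls and 40.5, 62.8 and 48.2 CPM under RLX. The female ages overlapped (log2 fold change 0.24, SE 0.11, FDR = 0.241), and RLX-treated female 6 overlapped control female 5 (log2 fold change -0.52, SE 0.13, FDR = 0.146). Itgb2, the beta chain of the leukocyte integrins, had 8.06, 8.50, 9.53 and 10.2 CPM in the 9-month females, 16.2, 13.001, 16.7 and 15.5 CPM in the 24-month control females and 11.9, 11.03, 10.4 and 10.6 CPM in the RLX-treated females. In males Itgb2 had 12.8, 18.9 and 15.6 CPM at 9 months, 9.47, 9.19 and 12.3 CPM in the 24-month controls and 13.2, 10.7 and 14.4 CPM under RLX. It rose with female age (log2 fold change 0.78, SE 0.12, FDR = 0.00798) and the RLX-treated females, within a narrow range, lay between the young and the aged controls without touching either (log2 fold change -0.50, SE 0.11, FDR = 0.102).

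Cd53, a leukocyte tetraspanin, had 22.9, 33.7, 25.8 and 32.3 CPM in the 9-month females, 45.8, 40.2, 40.4 and 40.4 CPM in the 24-month control females and 27.998, 33.4, 26.8 and 24.3 CPM in the RLX-treated females. In males Cd53 had 33.9, 70.1 and 37.9 CPM at 9 months, 32.5, 28.3 and 65.7 CPM in the 24-month controls and 38.4, 52.7 and 46.5 CPM under RLX. It rose with age in females (log2 fold change 0.55, SE 0.12, FDR = 0.0281), and RLX-treated females all lay below the controls (log2 fold change -0.59, SE 0.10, FDR = 0.0698). Laptm5, a lysosomal membrane protein, had 51.2, 72.2, 56.99 and 71.2 CPM in the 9-month females, 105, 99.1, 97.7 and 108 CPM in the 24-month control females and 64.3, 82.4, 62.2 and 59.8 CPM in the RLX-treated females. Male Laptm5 levels were 87.9, 129 and 124 CPM at 9 months, 83.3, 90.8 and 126 CPM in the 24-month controls and 83.5, 94.7 and 121 CPM under RLX. It was higher with age in females (log2 fold change 0.72, SE 0.12, FDR = 0.00903), and its RLX value had the smallest p of the set (log2 fold change -0.63, SE 0.11, FDR = 0.066), with no overlap. Coro1a, an actin regulator, had 27.5, 34.7, 28.04 and 41.7 CPM in the 9-month females, 58.5, 47.6, 37.8 and 47.1 CPM in the 24-month control females and 24.98, 35.1, 30.96 and 34.7 CPM in the RLX-treated females. Male Coro1a levels were 33.3, 48.8 and 48.4 CPM at 9 months, 22.6, 31.5 and 35.99 CPM in the 24-month controls and 26.5, 19.99 and 37.9 CPM under RLX. The female ages overlapped (log2 fold change 0.55, SE 0.16, FDR = 0.0683), whereas the RLX-treated females all lay below the controls (log2 fold change -0.62, SE 0.14, FDR = 0.115).

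Lcp1, the actin-bundling protein L-plastin, had 78.1, 93.6, 80.3 and 108 CPM in the 9-month females, 148, 128, 117 and 134 CPM in the 24-month control females and 107, 95.1, 92.4 and 85.7 CPM in the RLX-treated females. In males Lcp1 had 118, 199 and 147 CPM at 9 months, 89.7, 98.6 and 135 CPM in the 24-month controls and 129, 125 and 121 CPM under RLX. Ages separated in females (log2 fold change 0.57, SE 0.12, FDR = 0.0223) and so did RLX-treated from control females (log2 fold change -0.49, SE 0.10, FDR = 0.0847). Hcls1, a cortactin relative of blood cells, had 10.8, 12.3, 10.6 and 15.3 CPM in the 9-month females, 22.1, 18.9, 19.9 and 23.97 CPM in the 24-month control females and 15.97, 13.9, 13.6 and 13.2 CPM in the RLX-treated females. Male Hcls1 levels were 16.2, 29.3 and 25.7 CPM at 9 months, 12.7, 16.3 and 17.7 CPM in the 24-month controls and 20.5, 14.9 and 17.1 CPM under RLX. It rose with female age (log2 fold change 0.81, SE 0.14, FDR = 0.00982) and stood at -0.60 (SE 0.11, FDR = 0.0816) under RLX, again without overlap.

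Set directly against 9-month females, RLX-treated 24-month females differed in no member that passed the test. The nearest were Aif1 (log2 fold change 0.58, SE 0.13, FDR = 0.186), Cd68 (log2 fold change 0.49, SE 0.14, FDR = 0.264) and Gpnmb (log2 fold change 0.59, SE 0.17, FDR = 0.278). With edgeR's quasi-likelihood test 0 of 34 members and 0.00796% of all genes were called. DESeq2 and the exact test called Aif1 alone among the members, with 52 and 46 of all genes higher and 37 and 32 lower. Voom called no member and 1 of all genes. At an unadjusted p under 0.05, 6 members were higher (Aif1, Cd68, Gpnmb, Folr2, Cd163 and Itgb2), beside 5.54% of all genes, and 27 of the 34 log2 fold changes were positive, beside 51.1%. The median was 0.20 over the members, 0.52 over the 4 resident genes and 0.08 over the 15 general myeloid genes, against 0.01 over all genes. The median over the members was 0.08 without RLX-treated female 1, and the count of 6 was 11 without RLX-treated female 6.

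In males the set did not rise with age. The members with the smallest p were Siglec1 (log2 fold change -0.81, SE 0.25, FDR = 0.424), Csf1r (log2 fold change -0.56, SE 0.18, FDR = 0.426) and Aif1 (log2 fold change -0.85, SE 0.28, FDR = 0.468), all lower in 24-month than in 9-month control males, and none passed. By edgeR's quasi-likelihood test 0 of 34 members and 0% of the 12220 genes were called, and DESeq2, the exact test and voom also called 0 members. Over all genes DESeq2, the exact test and voom called 30, 32 and 26 higher and 33, 46 and 47 lower. At an unadjusted p under 0.05, 10 members were lower and none higher, beside 5.73% of all genes lower, and 28 of the 34 log2 fold changes were negative, beside 51.7%. The median was -0.41 against -0.01 over all genes. In the 9-month males, rat 3 held the highest level of most members, such as 165 CPM of Lyve1 and 78.4 CPM of Aif1, and without it the median was -0.22, with 5 members called lower in that way. The same count was 16 without 9-month male 2, 6 without 9-month male 4, 3 without 24-month control male 8, 5 without control male 11 and 14 without control male 12. With voom it was 18, and 1 member was higher.

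The resident genes in males stood at -0.42 (Cd163), -0.11 (Mrc1), -0.57 (Lyve1) and -0.49 (Folr2) on the log2 scale with age. Mrc1 turned to 0.12 without 9-month male 3 and to 0.04 with voom. T cell genes summed to 23.02 to 46.4 CPM in the 9-month and 19.2 to 24.1 CPM in the 24-month control males, endothelial genes to 315 to 388 and 214 to 318 CPM, and red cell genes to 56.1 to 128 and 7.82 to 20.8 CPM, and their part in the result was not tested.

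In males most members had a positive value under RLX, and none passed. The smallest p belonged to Ptprc (log2 fold change 0.66, SE 0.24, FDR = 0.341), Mertk (log2 fold change 0.50, SE 0.19, FDR = 0.355) and Cd163 (log2 fold change 0.52, SE 0.20, FDR = 0.373), all above 24-month control males in mean. By edgeR's quasi-likelihood test 0 of 34 members and 0% of the 12232 genes were called, and the other 3 tests called 0 members as well. Over all genes DESeq2, the exact test and voom called 6, 1 and 15 higher and 115, 17 and 193 lower. At an unadjusted p under 0.05, 5 members were higher (Cd163, Adgre1, Timd4, Mertk and Ptprc) and none lower, beside 4.41% of all genes higher, and 23 of 34 values were positive, beside 51.3%. The median was 0.18 against 0.01 over all genes, and it was 0.10 without control male 8, 0.11 without control male 11, 0.28 without control male 12 and 0.29 with voom. The count of 5 was 1 without control male 8 or RLX-treated male 3, 2 without RLX-treated male 2, 3 without control male 11, and 10 without control male 12 or RLX-treated male 7. With voom that count was 13, and 1 member was lower. With a gene length correction the count was 1. Cd68 (0.13) and Folr2 (0.08) changed sign when RLX-treated male 2 was left out (-0.01 and -0.04), and Folr2 also without control male 8 (-0.02). The muscle cell genes summed to 21468 to 22733 CPM in the RLX-treated and 26249.8 to 27239 CPM in the 24-month control males, without overlap, and the fibroblast genes to 1915 to 3119.8 and 2204 to 2774 CPM. Red cell genes were at 332 CPM in RLX-treated male 2, and their part in the result was not tested.

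Against 9-month males, RLX-treated 24-month males had lower values of Trem2 (log2 fold change -1.32, SE 0.40, FDR = 0.171), Tyrobp (log2 fold change -0.73, SE 0.25, FDR = 0.208) and Spi1 (log2 fold change -0.75, SE 0.30, FDR = 0.256), the members with the smallest p, and none passed. By edgeR's quasi-likelihood test 0 of 34 members and 0% of the 12285 genes were called, as with DESeq2, the exact test and voom for the members. Over all genes DESeq2, the exact test and voom called 115, 104 and 51 higher and 203, 237 and 121 lower. At an unadjusted p under 0.05, 5 were lower (Tyrobp, Spi1, Trem2, Maf and Coro1a), beside 8.97% of all genes. The count of 5 was 1 without RLX-treated male 3, 2 without 9-month male 4 and 8 without 9-month male 2. The median was -0.25, against -0.03 over all genes, and it was -0.06 without 9-month male 3 and -0.15 without RLX-treated male 7 or with voom.

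The aging response of these genes differed between the sexes. In a contrast over all 21 libraries (female 24-month minus 9-month control, less the same in males), 19 of the 34 members passed with a higher value in females, beside 2.43% of the 13229 genes, and none passed in the other direction. DESeq2, voom and a fit with a gene length correction each called 1 member in that other direction. Of the 13229 genes they called 469, 614 and 369 there. Integrin Itgb2 had the smallest p (log2 difference 1.39, SE 0.22, FDR = 0.00428), followed by Hcls1 (log2 difference 1.42, SE 0.26, FDR = 0.00658) and Aif1 (log2 difference 2.02, SE 0.37, FDR = 0.00749), and Trem2 had the largest difference (log2 difference 2.64, SE 0.56, FDR = 0.0118). Among the resident genes Folr2 (log2 difference 1.48, SE 0.28, FDR = 0.00773), Cd163 (log2 difference 1.18, SE 0.27, FDR = 0.0175) and Mrc1 (log2 difference 0.85, SE 0.23, FDR = 0.0414) passed, while Lyve1 stood at 1.10 (SE 0.41, FDR = 0.126).

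The remaining members that passed ran from 0.91 (Laptm5) to 1.43 (Ms4a7) and included Cd68 (1.35), Csf1r (1.07), Adgre1 (0.97), Cd4 (1.00), Clec10a (1.25), Stab1 (1.18), Siglec1 (1.36), Tyrobp (1.29), Lcp1 (1.09) and Coro1a (1.08). The oxidase gene Ncf1 stood on the other side at -0.58 (SE 0.17, FDR = 0.0537), and Csf1 (log2 difference 0.19, SE 0.51, FDR = 0.88) and Cd86 (log2 difference 0.18, SE 0.50, FDR = 0.887) were near 0 with wide errors. The median over the members was 1.03 against 0.0047 over all genes. The count of 19 was 7 without the 3 libraries high in atrial or red cell genes, 12 without 24-month control male 8 and 10 without 9-month male 4, the male with the highest sum of atrial genes. Over all genes, 107 of 13298, 120 of 13383 and 119 of 13389 were called higher in those fits. The median over the members stayed between 0.90 and 1.17 when any single rat was left out. Fibroblast collagen genes Col1a1 (2.30) and Col1a2 (2.44) passed in the same contrast and no T cell gene did, and their part in the result was not tested.

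**Figure D3:**
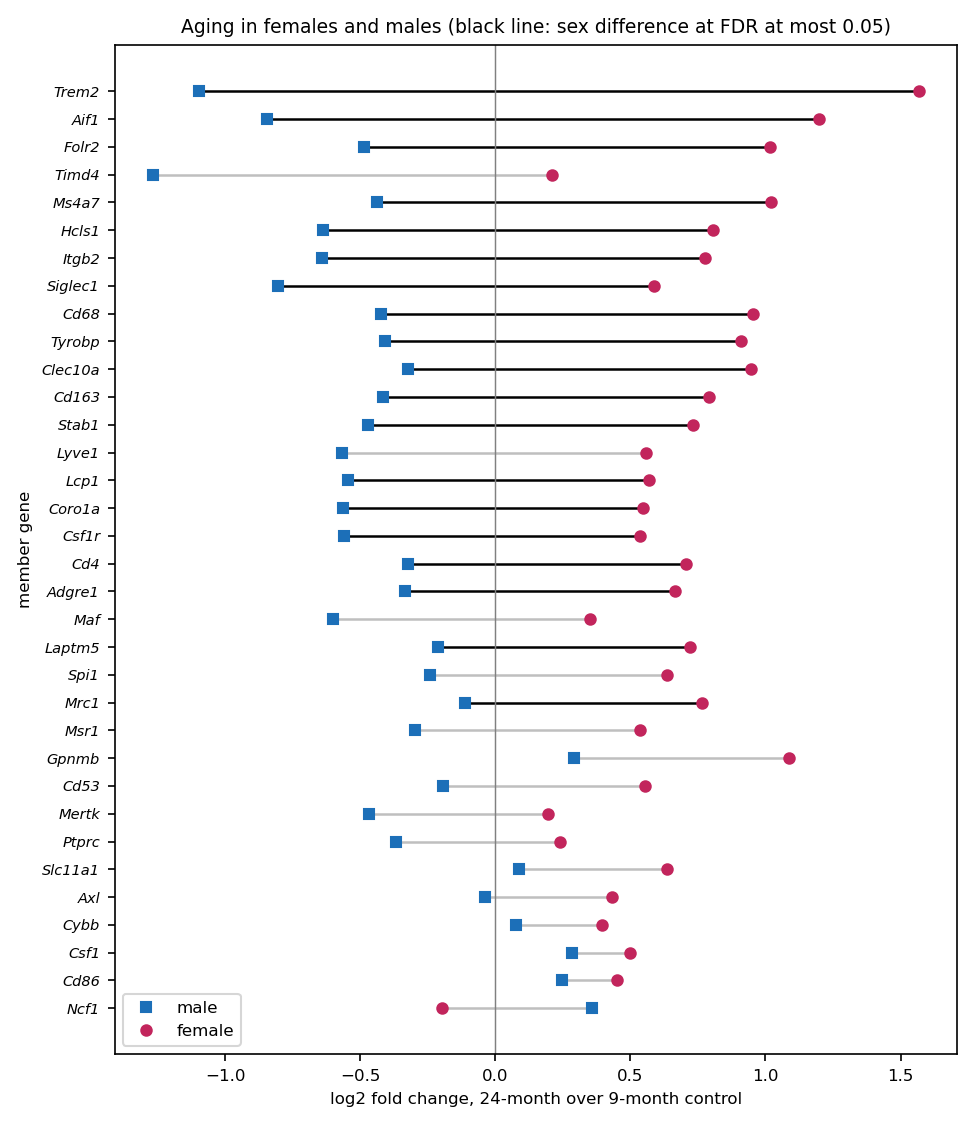
Log2 fold change of 24-month over 9-month controls in females (circles) and males (squares) for the 34 tested genes, ordered by the difference between the sexes; a black line joins the pair where that difference passed the test. All circles but that of Ncf1 lie right of 0, and most squares lie left of it.

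For RLX the difference between the sexes did not pass for any member. The smallest p were those of Ptprc (log2 difference -1.14, SE 0.28, FDR = 0.0945), Adgre1 (log2 difference -0.94, SE 0.23, FDR = 0.0945) and Itgb2 (log2 difference -0.80, SE 0.22, FDR = 0.115), each with a negative RLX value in females and a positive one in males. By edgeR's quasi-likelihood test 0 of 34 members and 0% of all genes were called. DESeq2 called 3 (Adgre1, Mrc1 and Ptprc) on the lower side, with 49 of the 13229 genes lower and 277 higher. With voom 7 were called on that side, with 56 of the 13229 genes lower and 248 higher. At an unadjusted p under 0.05, 16 members lay on the lower side for females, beside 5.03% of all genes, and Ncf1 alone on the other side. The median was -0.62 against 0.02 over all genes. Without the 3 libraries high in atrial or red cell genes the 16 became 9.

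Averaged over the 3 groups of each sex, resident genes were lower in females than in males. All 4 passed: Lyve1 at -0.82 (SE 0.16, FDR = 0.00142), Mrc1 at -0.55 (SE 0.10, FDR = 0.000274), Folr2 at -0.37 (SE 0.12, FDR = 0.0205) and Cd163 at -0.32 (SE 0.11, FDR = 0.0352). Lyve1 and Mrc1 passed under all 27 alternatives, Folr2 under 24, and Cd163 under 11, with an FDR of up to 0.106. The average did not hold in each group. Within the 24-month controls the mean was higher in females for Cd163 (63.2 against 50.8 CPM in males) and Folr2 (39.9 against 33.2 CPM). There Mrc1 was level (104.97 against 104.94 CPM) and Lyve1 was lower in females (58.5 against 72.7 CPM). In all, 12 of 34 members were lower in females and 3 higher, but 12.8% and 13.1% of all genes were called in those directions. The 3 higher were Stab1 (log2 fold change 0.54, SE 0.11, FDR = 0.00111), Maf (log2 fold change 0.65, SE 0.19, FDR = 0.0155) and Spi1 (log2 fold change 0.53, SE 0.16, FDR = 0.0164). Besides the resident genes, Laptm5 (-0.47), Ncf1 (-0.30), Cd68 (-0.46), Clec10a (-0.45), Cd86 (-0.68), Cd53 (-0.48), Lcp1 (-0.30) and Csf1 (-0.62) were lower. The count of 15 in both directions was 10 without 24-month control male 12 or 9-month male 3, and 12 without the 3 libraries high in atrial or red cell genes. Males and females were loaded on the sequencer at different concentrations, so a sex difference in level cannot be told apart from the loading, and the comparisons within a sex are free of it.

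Resident and general myeloid genes were then compared within each rat, as the mean log2 CPM of Cd163, Mrc1, Lyve1 and Folr2 minus that of 15 general genes (Cd68, Adgre1, Csf1r, Itgb2, Laptm5, Tyrobp, Aif1, Cd53, Ptprc, Spi1, Cybb, Ncf1, Hcls1, Coro1a and Lcp1). The difference was 0.65, 0.11, 0.18 and 0.30 in the 9-month females, 0.35, 0.48, 0.55 and 0.56 in the 24-month control females and 0.99, 0.43, 0.72 and 0.39 in the RLX-treated females. In males it was 0.76, 0.93 and 0.61 at 9 months, 0.87, 0.95 and 0.50 in the 24-month controls and 1.19, 1.13 and 0.55 under RLX. All groups of a sex overlapped. Means were 0.31 ± 0.24 (SD, n = 4), 0.48 ± 0.10 (SD, n = 4) and 0.63 ± 0.28 (SD, n = 4) in the females and 0.76 ± 0.16 (SD, n = 3), 0.78 ± 0.24 (SD, n = 3) and 0.96 ± 0.35 (SD, n = 3) in the males.

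The shift between groups stayed within the spread of the rats in most comparisons. It was 0.17 for female aging (pooled SD 0.18), 0.15 for RLX in females (pooled SD 0.21), 0.01 for male aging (pooled SD 0.21) and 0.18 for RLX in males (pooled SD 0.30). These values turned on single rats. RLX in females gave 0.03 without RLX-treated female 1, female aging ran from 0.10 to 0.28, male aging from -0.08 to 0.15 and RLX in males from 0.04 to 0.38 as each rat was left out. With a median over genes in place of the mean, the female shifts were 0.02 with age and 0.41 under RLX, and the male shifts -0.10 and 0.22. RLX-treated against young females gave the largest value (0.32, pooled SD 0.26). RLX-treated female 1 had the highest difference of the females, and its 4 resident genes summed to 292 CPM, above the 252 to 289 CPM of the 24-month controls, while its 15 general genes summed to 674 CPM, below their 782 to 887 CPM. That rat also held more of the atrial muscle and fat cell genes than the other RLX-treated females, and their part was not tested. The other RLX-treated females held 161 to 219 CPM of the resident and 562 to 650.3 CPM of the general genes.

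By fold change, the median in female aging was 0.78 for the resident and 0.64 for the general genes. Of these, 3 of 4 and 10 of 15 passed and were higher, beside 3.47% of all genes. Under RLX in females the median was -0.34 for the resident and -0.59 for the general genes. At an unadjusted p under 0.05, 2 of 4 (Mrc1 and Folr2) and 13 of 15 were lower, beside 7.81% of all genes. The 13 were all general genes except Cybb and Ncf1. In 9 of the 15 general genes and in none of the 4 resident genes did RLX-treated females all lie below the controls, beside 3.7% of all genes. For the 4 resident genes a count of 0 is near that share. Male aging gave -0.45 for the resident and -0.41 for the general genes, and RLX in males 0.37 for the resident and 0.20 for the general genes. Whether the resident genes responded differently from the general genes was not tested, since a score over chosen genes carries no p here.

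**Figure D4:**
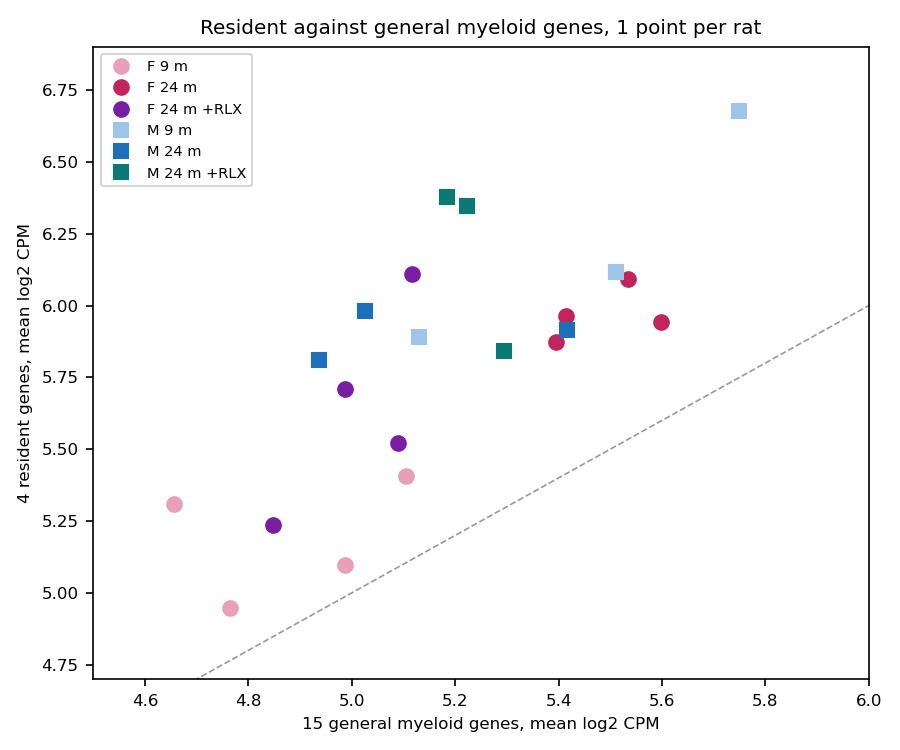
Mean log2 CPM of the 4 resident genes (vertical axis) against that of the 15 general myeloid genes (horizontal axis), 1 point per rat, with females as circles and males as squares; the dashed line marks equal means. Every rat lies above the line, the 24-month control females form a cluster at the right of the females, and RLX-treated female 1 lies level with them on the vertical axis but to their left.

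A list of 50 other macrophage genes, taken from general knowledge of the cell type, was read beside the members. It was chosen with earlier results of these data known, so its counts are no independent support for those of the members. In female aging 19 of 47 tested passed and were higher and none lower, beside 3.47% of all genes higher, with a median of 0.62. The smallest p belonged to Fcgr3a, an Fc receptor (0.653 to 0.905 CPM in 9-month, 2.56 to 3.18 CPM in 24-month control and 1.05 to 1.97 CPM in RLX-treated females, log2 fold change 1.93, SE 0.22, FDR = 0.00324), the protease Ctss (0.87), the Fc receptor gamma chain Fcer1g (0.97) and the oxidase subunit Cyba (0.91). Under RLX in females none passed, as in 0% of all genes, and 17 had a lower mean with an unadjusted p below 0.05, beside 7.81% of all genes. Fcgr3a (-1.10), Cyba (-0.59), the GTPase regulator Arhgdib (-0.49) and the transcription factor Irf8 (-0.68) had the smallest p. The median there was -0.40.

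In males none of the list passed with age or RLX, and 0% of all genes did (medians of the list -0.34 and -0.03 over 43 genes tested). The phospholipase Pla2g7 had the smallest p with male age, from 16.4 to 19.04 CPM at 9 months to 37.7 to 47.7 CPM at 24 months without overlap (log2 fold change 1.20, SE 0.17, FDR = 0.103), a direction opposite to most of the set in males. In the contrast between the sexes in aging, 14 of 47 passed toward females, beside 2.43% of all genes. Among them were Cyba (1.48), the kinase Syk (1.65) and the growth factor receptor Csf2ra (1.96). Pla2g7 alone passed toward males (-1.17), beside 1.87% of all genes. For RLX-treated against young females, Vsig4, a complement receptor of resident macrophages, had the smallest p of the list (log2 fold change 1.95, SE 0.47, FDR = 0.227).

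**Figure D5:**
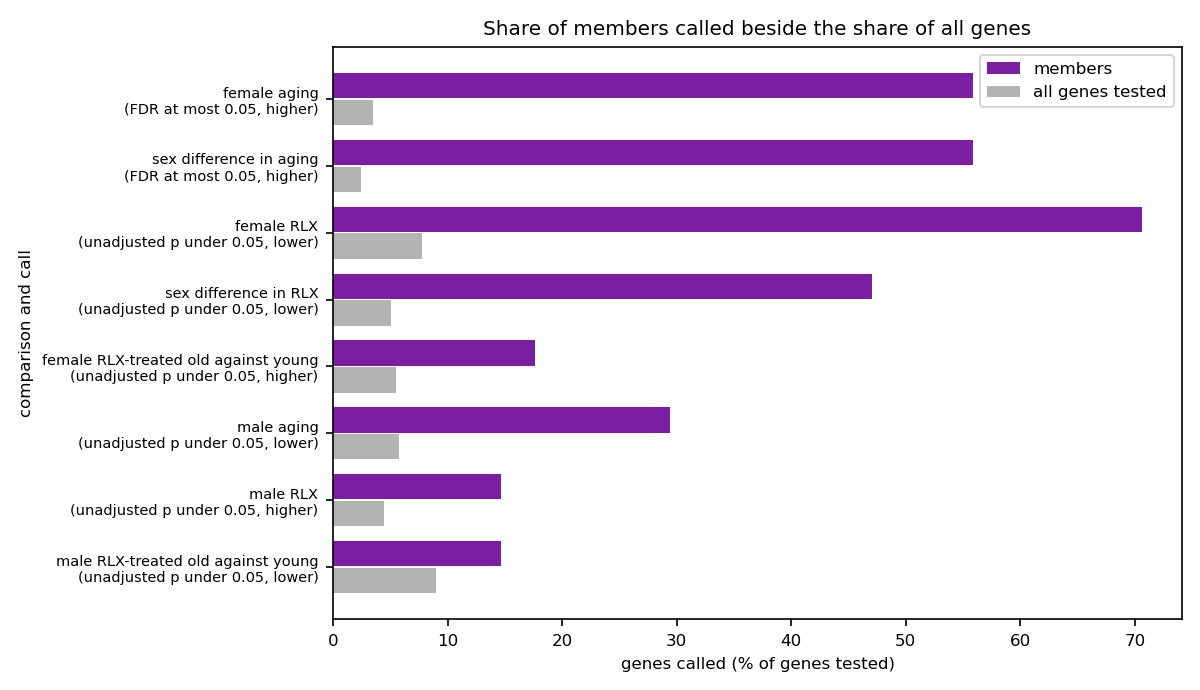
Share of the 34 tested members called (purple) and of all genes tested (grey), in percent of genes tested, for 8 comparisons and calls named on the vertical axis; no error is drawn because each bar is a count. The members reach 55.9% in female aging and in its difference between the sexes, and 14.7% for RLX in males.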

How the data were processed

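RNA-seq of left ventricle was read in 21 libraries. The authors prepared libraries from total RNA after ribosomal depletion, sequenced them paired-end and mapped them in Biomedical Genomics Workbench. The deposited tables hold a raw count and an RPKM (reads scaled by the authors to gene length and library size) for each of 26597 genes. Neither the genome build nor the use of strand in counting is given in the sources used here. The 4 tables repeat 14 columns between them, counts and RPKM together, with equal values, and 56 further columns of normalized values were not used.

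Counts were tested within each pair of groups with edgeR 4.0.16 (filterByExpr, TMM factors, robust quasi-likelihood F-test, Benjamini-Hochberg over all genes tested), in R 4.3.3. The contrasts between the sexes used all 21 libraries. The SE is the absolute log2 fold change over the root of F. Log2 CPM used a prior count of 2. Alternatives were DESeq2 1.42.0, edgeR's exact test, limma 3.58.1 (voom with sample quality weights), other size factors, no filter, a gene length correction, 1 fit per sex, the rat number as a block and each rat left out. The test was checked on simulated counts. CPM in every rat is given for the resident genes, for Cd68, Csf1r, Csf1, Adgre1 and Cd4, for members that passed in any comparison and for the 3 smallest p of each. Members and lists were chosen with earlier results of these data known. Promoter windows are RefSeq sequence of GRCr8.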

Additional observations from a re-analysis of the deposited data

Results flagged for a closer look

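Of 105 sets of female values (a member, or the resident minus general difference, in a group of 4 rats), 4 had a rat whose gap to the next exceeded Dixon's 95% limit. Chance alone flags about 1 in 20 such sets. Msr1 stood at 13.9 CPM in RLX-treated female 1 (next 7.45 CPM), Cd53 at 45.8 CPM in 24-month control female 2 (next 40.4 CPM), and Slc11a1 at 1.55 CPM in 9-month female 3 (next 1.06 CPM). Clec10a stood lowest in 24-month control female 5, at 53.2 CPM (next 70.7 CPM), the rat with the high atrial genes. Male groups of 3 were not examined in this way.

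The difference between the sexes in the aging change passed the test in 19 members. On the log2 scale, female minus male, it was 2.64 for Trem2, 2.02 for Aif1, 1.48 for Folr2, 1.43 for Ms4a7, 1.42 for Hcls1, 1.39 for Itgb2, 1.36 for Siglec1, 1.35 for Cd68, 1.29 for Tyrobp and 1.25 for Clec10a. It was 1.18 for Cd163 and for Stab1, 1.09 for Lcp1, 1.08 for Coro1a, 1.07 for Csf1r, 1.00 for Cd4, 0.97 for Adgre1, 0.91 for Laptm5 and 0.85 for Mrc1. Of these, 17 also passed in female aging alone, and Siglec1 and Coro1a passed in the contrast only.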

How the results depend on the processing

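Every change below is a count of members called at an FDR of at most 0.05 unless stated, and the cause was not tested. In female aging (19 called) the count ran from 12 to 21 as single rats were left out. Under RLX in females (0 called) DESeq2 gave 13, edgeR's exact test 10 and the fit without a filter on low counts 4. Over all genes these fits called 195, 139 and 29 lower. For RLX-treated against young females (0 called) DESeq2 and the exact test each gave 1, with 52 and 46 of all genes higher. For the sex difference in aging (19 called) the range over single rats was 10 to 21, with both directions counted together. Without the 3 libraries high in atrial or red cell genes the count was 7. For the sex difference in RLX (0 called) DESeq2 gave 3, voom 7, and single rats 0 to 1. DESeq2 and voom called 49 and 56 of all genes lower and 277 and 248 higher there. The resident minus general difference under RLX in females was 0.15, 0.41 with a median over genes in place of the mean and 0.03 without RLX-treated female 1. The same median took it from 0.17 to 0.02 in female aging and from 0.01 to -0.10 in male aging. For females against males (15 called) the range over single rats was 10 to 18, and Cd163 passed in 11 of 27 alternatives. Signs turned for Lyve1 under RLX in females (0.01 and 0.11 without RLX-treated female 2 or 6, range over single rats -0.25 to 0.11), Cd68 under RLX in males (-0.01 without RLX-treated male 2, range -0.01 to 0.33), Folr2 there (-0.02 and -0.04 without control male 8 or RLX-treated male 2, range -0.04 to 0.23) and Mrc1 in male aging (0.04 with voom, 0.12 without 9-month male 3, range -0.27 to 0.12). Of the other single-gene values, 2076 kept their direction and side of the threshold, 161 lost and 48 gained a call.

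Rat numbers are shared by some groups. Deviations of same-numbered rats from their group means correlated at -0.066 and -0.109 in female aging and at 0.087, 0.213 and -0.162 under RLX in females, and at -0.055 and -0.101 for RLX-treated against young females and 0.002 and 0.439 for the males, so the numbers were not read as pairs. With the rat number as a replicate block, 0 members and 0 of all 12696 genes were called in female aging. Under RLX in females 1 member (Clec10a) was lower, with 18 of the 12591 genes lower. In RLX-treated against young females 6 members were higher, with 173 of the 12570 genes higher and 74 lower. In RLX-treated against young males 1 member (Coro1a) was lower, with 496 of the 12285 genes lower and 172 higher. No paired analysis was possible for aging or RLX in males because those groups share fewer than 2 numbers. With 3 or 4 rats per group, changes smaller than the spread between rats could not be resolved, least of all in low genes such as Maf, Cd86 and Trem2.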
